A study of Homo sapiens with 6 samples.

Results

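Nuclear transport factors are the receptors, adapters and regulators that carry proteins and RNA through the nuclear pore. They were taken here as the rows of the expression table named KPNA, KPNB, IPO, XPO, TNPO, NXF or NXT followed by a number or T, together with CSE1L, RAN, RANBP1, RANGAP1, RCC1 and NUTF2. The rule used gene names only and found 37 of 26810 gene rows, of which 33 reached 1 in 3 or more of the 6 libraries and were tested among 12449 genes.

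The study sequenced poly(A)-selected RNA from U-937, a human myeloid leukemia cell line with monocytic features, which the labels describe by a KMT2A-MLLT10 fusion. The identity of that fusion rests on the labels alone and was not checked here. Cells of a single Cas9-expressing clone received by lentivirus either the control guide sgNS (3 libraries) or sgMETTL1.3, a guide against METTL1 (3 libraries), which encodes the tRNA N7-methylguanosine methyltransferase. Both groups were selected with blasticidin (10 µg/ml) and hygromycin B (200 µg/ml), and the labels give harvest at day 8 to 10 after transduction. The comparison addressed what this guide does to gene expression, and with 1 clone, 1 METTL1 guide and no rescue among the libraries, loss of METTL1 and any effect of the guide elsewhere cannot be told apart. Nothing in the labels ties the replicates to separate cultures, and the p-values then reflect library-to-library spread that may be technical.

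Members of the karyopherin family bind cargo directly or through an importin alpha adapter, and the small GTPase RAN sets their direction. RCC1 loads RAN with GTP in the nucleus, where RAN-GTP releases import cargo and lets export receptors pick up theirs, and RANGAP1 with RANBP1 drives GTP hydrolysis in the cytoplasm. Bulk mRNA leaves by another route, the NXF1-NXT1 heterodimer, which does not belong to the karyopherins and does not need RAN-GTP to bind its cargo.

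Values are TPM, a level relative to transcript length and to the library's total, after rescaling of each library to an equal sum of 92 ERCC spike-in rows. The scaling factor was 1.13 to 1.23 in sgNS and 0.832 to 1.03 in sgMETTL1.3. On this spike-in scale the log2 fold changes of the tested genes had a median of -0.32, against 0.00 as TPM, so both scales are given. Libraries were made from a fixed mass of RNA, and the labels do not say that spike-ins were matched to cell number, so the spike-in scale is not read as transcripts per cell. In bulk samples, fewer cells of a type and less RNA per cell cannot be told apart. The library sgMETTL1.3 replicate 1 stood apart, since its deviation from the other 2 libraries of its group followed transcript GC content over all tested genes (Spearman 0.836, across genes, which are not replicates). METTL1 itself had values of 19.7, 22.0 and 20.3 in sgNS and 8.28, 5.94 and 7.42 in sgMETTL1.3. Of 8 myeloid markers, 6 were at 1 or more in every library, while MPO and CD14 were below 1 in all. The summed T and natural killer cell markers were 306 to 340 in sgNS and 161 to 244 in sgMETTL1.3, almost all of it NKG7, with CD3D at 0. Those of B cells summed to 7.85 to 10.1 in sgNS and 6.26 to 10.9 in sgMETTL1.3, with MS4A1 at 0. Fibroblast and endothelial markers summed to 45.9 to 49.8 in sgNS and 35.9 to 40.0 in sgMETTL1.3, with COL1A2 at 0. Most of this was PECAM1, at 44.2 to 47.9 and 33.2 to 36.7. Erythroid markers summed to 3.09 to 3.61 and 1.64 to 2.82, all of it KLF1. Epithelial markers summed to 0.199 or less in every library, with KRT18 at 0. Their part in the results was not tested.

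Upstream sequence is shown first for NXT1, NXT2 and CSE1L, the transcripts on which the mRNA export and importin alpha recycling results turn. RefSeq promoter windows (GRCh38.p14) were matched by symbol for 29 of the 37 genes. KPNA4, KPNA5, KPNA7, KPNB1, NXF4, NXF5, RANBP1 and XPO7 had none. Each sequence is the part of the 250 bases before a RefSeq start that holds no GENCODE exon, 5′ to 3′ on the gene's strand, and all 3 genes lie on the plus strand. Capitals mark CCAAT and CCGGAAG on either strand; CACGTG was searched too and is not in these stretches.
NXT2, chrX:109535574-109535780: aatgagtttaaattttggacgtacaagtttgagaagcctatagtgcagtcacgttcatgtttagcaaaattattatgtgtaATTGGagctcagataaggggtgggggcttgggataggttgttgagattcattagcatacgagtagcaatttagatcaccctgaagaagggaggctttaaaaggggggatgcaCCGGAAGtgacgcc
NXT1, chr20:23350541-23350735: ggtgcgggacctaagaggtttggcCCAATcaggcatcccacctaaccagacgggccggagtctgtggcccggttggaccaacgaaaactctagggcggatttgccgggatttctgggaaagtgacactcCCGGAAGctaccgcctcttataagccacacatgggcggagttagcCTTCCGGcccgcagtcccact
CSE1L, chr20:49046062-49046245: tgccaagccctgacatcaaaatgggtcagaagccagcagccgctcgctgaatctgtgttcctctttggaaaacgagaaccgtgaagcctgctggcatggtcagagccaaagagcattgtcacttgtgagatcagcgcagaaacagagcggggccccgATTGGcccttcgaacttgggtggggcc

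The hexamer CACGTG, the E-box letters that MYC-MAX and related factors can bind, was found in 8 of 39 windows of the 29 genes (20.5%), against 6.34% of all 35116 windows and 8.37% of the 13267 windows of tested genes. CCAAT was in 14 of the 39 (35.9%, against 32% of all windows and 33.1% of those of tested genes), CCGGAAG in 6 (15.4%, against 8.52% and 14.4%) and TATAAA in 4 (10.3%, against 10.7% and 5.94%); both strands were read, and CACGTG reads the same on both. A match is a description of letters, not a bound site. The 8 stretches of 30 bases follow with CACGTG in capitals, to let its surroundings be compared.
IPO4, chr14:24188828-24188857, minus strand: tgtcagaacctcCACGTGctgtccctcccc
IPO7, chr11:9384502-9384531, plus strand: agctcaggcagcCACGTGggctgcggactg
KPNA3, chr13:49792731-49792760, minus strand: accgcccccggtCACGTGtcgccagcctcc
NXT2, chrX:109537095-109537124, plus strand: ctggctgctgctCACGTGgataggtgacga
RAN, chr12:130871952-130871981, plus strand: gcacgcgcgggcCACGTGggcgggcgccgc
RCC1, chr1:28518024-28518053, plus strand: tggttgttagtcCACGTGtcccgatttggg
TNPO2, chr19:12723939-12723968, minus strand: ggcggctttctgCACGTGtttctcagccca
XPO1, chr2:61537114-61537143, minus strand: gtccgcctgcatCACGTGgccccctcggtg
The NXT2 stretch lies before a RefSeq start downstream of the one shown above. Those of RCC1 and XPO1 likewise lie before the more downstream of their RefSeq starts. Unlike the exon-free sequences above, the stretches of IPO4, KPNA3, NXT2, RAN, TNPO2 and XPO1 overlap a GENCODE exon. Beyond the hexamer the flanks differ from gene to gene.

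Most transport factor transcripts were lower with sgMETTL1.3. Of the 33 tested, 28 fell, 1 rose and 4 did not pass, at a limma adjusted p under 0.05, when 49.3% of all tested genes fell and 6.4% rose. As TPM, 21 fell and 3 rose, against 26.6% and 24.4% of all tested genes. The 33 had a median of -0.67, against -0.32 over all genes, and as TPM -0.33 against 0.00. A log2 fold change of -1 or below was reached by 9 of the 33, and by 6.78% of all tested genes. In 29 of the 33 every sgMETTL1.3 value lay below every sgNS value, as it did for 53.4% of all genes, and in 1 every value lay above (8.66% of all genes). As TPM 22 lay wholly below (33.1% of all genes) and 3 wholly above (30.2%). The 21 that fell as TPM all fell on the spike-in scale, and the other 7 did not pass as TPM.

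**Figure D1:**
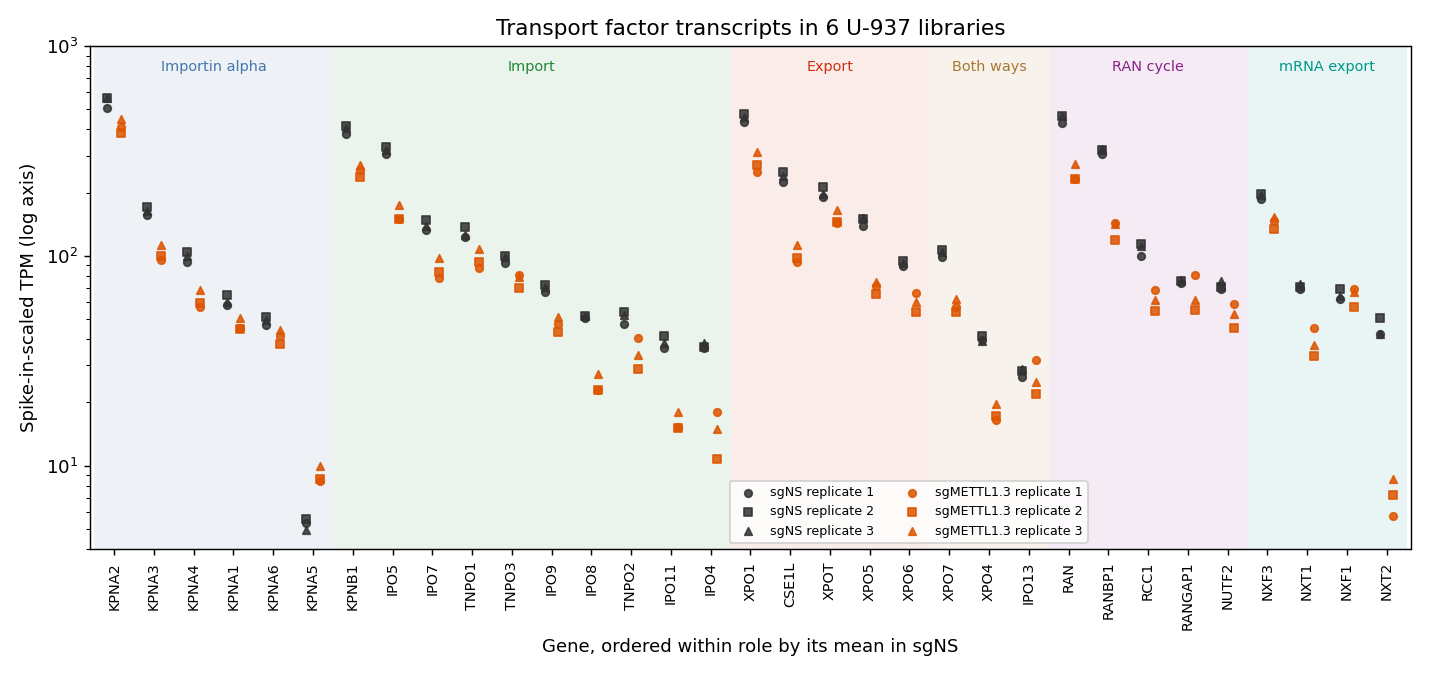
Value of each of 33 tested transcripts in each of 6 libraries (spike-in-scaled TPM, log axis), by role, with sgNS in grey and sgMETTL1.3 in orange and 1 marker shape per replicate number. Orange points lie below grey ones for 29 transcripts and above them for KPNA5, and the groups overlap for IPO13, RANGAP1 and NXF1.

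The levels span about 2 orders of magnitude in control cells, and since TPM is per length they can be set in order. KPNA2 was highest in sgNS with a mean of 546, followed by XPO1 at 455, RAN at 453 and KPNB1 at 400. XPO1 and RAN did not differ beyond their spread over libraries. KPNA5 was the lowest of the tested transcripts at 5.27, below IPO13 at 27.9. Between these, 19 of 32 neighbouring pairs in the order had overlapping ranges, mostly among the transcripts from 37.1 to 108. KPNA7 and NXF4 were listed at 0 in all 6 libraries. NXF2 was at 0.0966 or less and NXF5 at 0.479 or less, so these 4 were not tested.

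The NXF-NXT family held the deepest fall and, on the spike-in scale, the smallest change (NXF1, which rose as TPM). NXT2, a paralog of NXT1 that also binds NXF proteins, had values of 42.1, 50.2 and 42.2 in sgNS and 5.77, 7.21 and 8.60 in sgMETTL1.3. Every sgMETTL1.3 library was far below every control. The log2 fold change was -2.49 (SE 0.140, limma adjusted p = 1.05e-07), the 7th lowest of the 12449 tested genes, and -2.16 as TPM. NXT1, the small subunit of the general mRNA export receptor, had values of 69.8, 70.9 and 73.6 in sgNS and 45.01, 33.4 and 37.6 in sgMETTL1.3. NXT1 fell by 0.88 on the log2 scale (limma adjusted p = 3.60e-05), and by 0.54 as TPM.

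NXF1, the large subunit that contacts both mRNA and the pore, had values of 61.96, 69.6 and 64.5 in sgNS and 69.4, 57.1 and 67.2 in sgMETTL1.3. The groups overlapped, and the log2 fold change of -0.02 (95% interval -0.26 to 0.21) did not pass on the spike-in scale. As TPM, NXF1 rose from 54.9, 56.7 and 53.4 to 67.7, 68.7 and 70.8 (log2 fold change 0.32, limma adjusted p = 0.00323). NXF3, an X-linked family member lacking some of the RNA export domains of NXF1, was abundant in these cells, at 193 ± 5.59 in controls and 145 ± 9.91 with sgMETTL1.3 (SD over 3 libraries). It fell on the spike-in scale (-0.41) and did not pass as TPM (-0.07).

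Within each library the 2 subunits therefore stood in a different proportion. The ratio of NXT2 to NXT1 was 0.604, 0.708 and 0.573 in sgNS and 0.128, 0.216 and 0.229 in sgMETTL1.3. That of NXT1 to NXF1 was 1.13, 1.02 and 1.14 in sgNS and 0.649, 0.584 and 0.560 in sgMETTL1.3. Such ratios do not depend on the spike-in factor. The differences of the mean log2 ratios were -1.76 and -0.88, and NXT2 to NXF1 differed by -2.63. Each had an exact two-sided permutation p of 0.1, also after Benjamini-Hochberg adjustment over 10 ratios, which is the smallest p that 3 against 3 libraries can give. GENCODE names 1 NXT1 pseudogene. NXT1 lies on chromosome 20 at 23350736 to 23354777 (GRCh38), NXT2 on chromosome X at 109535781 to 109544690 and NXF1 on chromosome 11 at 62792123 to 62806302, and no exon of another gene overlaps theirs in GENCODE 29.

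**Figure D2:**
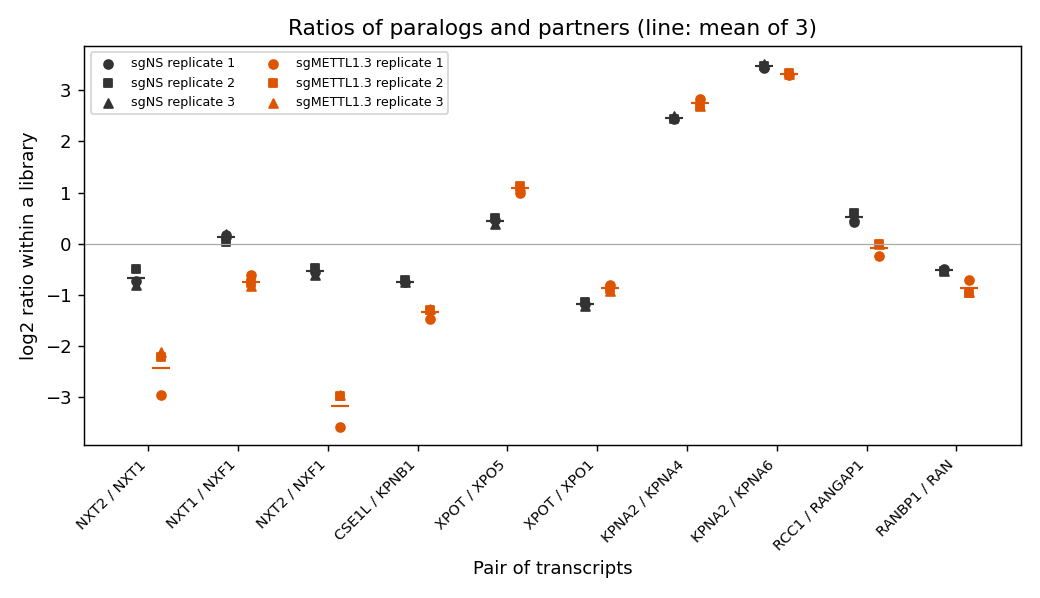
log2 ratio of 2 transcripts within each library for 10 pairs, with 3 sgNS libraries in grey, 3 sgMETTL1.3 libraries in orange and a line at each mean of 3. In each pair the groups lie apart, and the gap is widest for NXT2 to NXF1, at -2.63.

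For all 10 ratios the groups did not overlap, and the same holds for 64.2% of the ratios of any 2 tested genes, so such separation is common here. The sizes of these differences were not compared with those of other gene pairs.

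Among export receptors, all 5 fell on the spike-in scale, from CSE1L at -1.24 to XPOT at -0.41, with a median of -0.72, and 4 of 5 fell as TPM. Of all tested genes, 49.3% fell on the spike-in scale and 26.6% as TPM. CSE1L, also called exportin-2, returns importin alpha to the cytoplasm after import. It had values of 225, 252 and 241 in sgNS and 93.1, 97.1 and 112 in sgMETTL1.3 (log2 fold change -1.24, SE 0.104), and -0.89 as TPM. The groups stood well apart. XPO5, which exports microRNA precursors, had values of 139, 150 and 151 in sgNS and 72.1, 65.8 and 75.3 in sgMETTL1.3 (-1.04, and -0.69 as TPM). Its 3 sgMETTL1.3 values were also all below the controls. An exon of POLR1C overlaps XPO5 on the opposite strand, and whether the counting used strand is not given in the sources used here.

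XPO1, the export receptor for proteins with leucine-rich export signals and for several RNA classes, had values of 435, 472 and 458 in sgNS and 251, 269 and 311 in sgMETTL1.3 (-0.72, and -0.37 as TPM). XPO6, the exporter of actin-profilin, fell by 0.61, and by 0.26 as TPM. XPOT, the exportin of tRNA, had values of 191, 213 and 197 in sgNS and 143, 144 and 165 in sgMETTL1.3. It fell on the spike-in scale (-0.41, limma adjusted p = 0.00334) and did not pass as TPM (-0.07), where sgMETTL1.3 replicates 2 and 3 stood at 173.5 and 173.4 beside controls of 164 to 173.4. Without sgMETTL1.3 replicate 1 the TPM value turned to 0.04, without passing.

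The make-up of the export receptors shifted with this. XPOT took 17.7 ± 0.345% of their summed values in controls and 22.8 ± 0.0731% with the METTL1 guide (SD, n = 3). CSE1L went from 21.1 ± 0.245% to 15.3 ± 0.325%, and XPO5 from 12.9 ± 0.263% to 10.8 ± 0.643%. The ratio of XPOT to XPO5 was 1.31 to 1.41 in sgNS and 1.98 to 2.20 in sgMETTL1.3, and XPOT to XPO1 was 0.431 to 0.451 and 0.529 to 0.568 (exact two-sided permutation p = 0.1 for each).

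**Figure D3:**
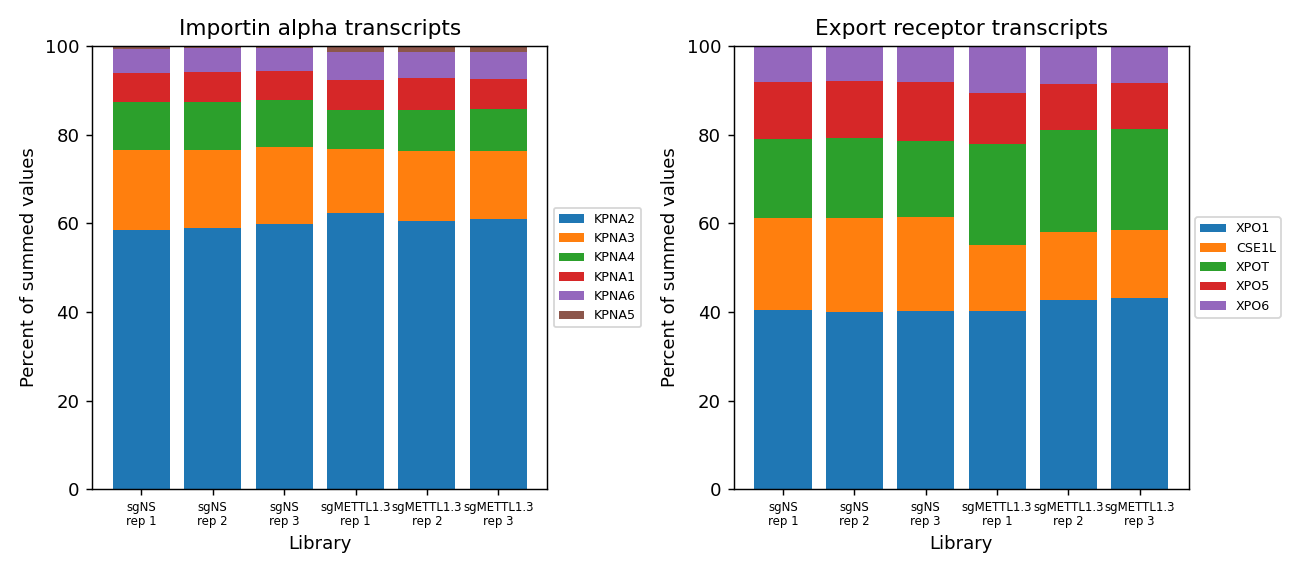
Share of each transcript in the summed values of importin alpha (left) and of export receptors (right), in percent, with 1 bar per library. XPOT widens from 17.7% to 22.8% of export receptors while CSE1L narrows from 21.1% to 15.3%, and KPNA2 stays the largest importin alpha in every library.

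Among import receptors, all 10 fell on the spike-in scale, with a median of -0.67, and 8 of 10 fell as TPM. The shares of all tested genes were 49.3% and 26.6%. With quantile normalization 5 of the 10 import and 4 of the 5 export receptors fell, against 26% of all tested genes. IPO4 and IPO5 are import receptors for histones and ribosomal proteins, among other cargo. IPO4 had values of 36.2, 36.8 and 38.3 in sgNS and 18.1, 10.7 and 15.0 in sgMETTL1.3 (-1.32, SE 0.160), and IPO5 had 306, 330 and 319 and then 149, 150 and 174 (-1.01, SE 0.0998). Both fell as TPM as well (-0.98 and -0.67). Exons of IPO4 overlap those of AL136295.4 on the same strand and of REC8 on the opposite strand. IPO11 had values of 36.4, 41.5 and 38.5 in sgNS and 15.4, 15.2 and 18.03 in sgMETTL1.3 (-1.21, and -0.88 as TPM), and it shares exon sequence with KIF2A and LRRC70 on its strand. IPO8, which is closely related to IPO7, had 50.5, 51.6 and 51.4 in sgNS and 23.0, 23.0 and 27.3 in sgMETTL1.3 (-1.04, and -0.70 as TPM). In each of these 4 genes the sgMETTL1.3 values were below every control, as for 53.4% of all tested genes.

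KPNB1, importin beta 1, which carries the importin alpha complexes through the pore, had values of 379, 416 and 406 in sgNS and 258, 238 and 271 in sgMETTL1.3. It fell by 0.65 on the log2 scale, and by 0.30 as TPM. IPO7 (-0.69), IPO9 (-0.57) and TNPO2 (-0.57) fell on both scales. TNPO1, the receptor for hnRNP A1 and related proteins (-0.42), and TNPO3, the receptor for SR splicing factors (-0.34), fell on the spike-in scale and did not pass as TPM (-0.07 and 0.01).

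Import and export receptors were then set against each other. Their median log2 fold changes were -0.67 over 10 and -0.72 over 5, with ranges of -1.32 to -0.34 and -1.24 to -0.41. As TPM the medians were -0.32 for import and -0.37 for export. Without sgMETTL1.3 replicate 1 they were nearly equal on the spike-in scale, at -0.673 and -0.676. The order reversed with GC correction, at -0.65 and -0.62, and with GC correction of TPM values, at -0.30 and -0.27. Which of the 2 medians was lower thus depended on the setting. The summed import values per summed export value were 1.18, 1.17 and 1.18 in sgNS and 1.28, 1.199 and 1.21 in sgMETTL1.3. Every sgMETTL1.3 library lay above every control, and the highest was the replicate that stood apart. Of the ratios of any 2 tested genes, 64.2% separate the groups in 1 direction or the other. The export sum in sgMETTL1.3 was 0.582 of that in sgNS, and the import sum 0.608. With IPO13 counted as import and XPO4 and XPO7 as export, the medians were -0.65 over 11 and -0.83 over 7. With GC correction these were -0.60 and -0.73. No test was run on these medians or sums.

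The 3 receptors reported to carry cargo both ways differed among themselves. XPO4, which exports the translation factor eIF5A, had values of 39.7, 41.3 and 39.1 in sgNS and 16.5, 17.2 and 19.6 in sgMETTL1.3 (-1.13, and -0.79 as TPM). XPO7 fell from 103 ± 4.03 to 57.6 ± 4.18 (SD, n = 3; -0.83, and -0.49 as TPM). IPO13 had values of 26.6, 28.3 and 28.8 in sgNS and 31.7, 21.9 and 25.0 in sgMETTL1.3, which overlapped, and did not pass (-0.10, 95% interval -0.39 to 0.18). It rose as TPM (0.23, limma adjusted p = 0.0459), and fell on the spike-in scale without sgMETTL1.3 replicate 1 (-0.24, limma adjusted p = 0.0475).

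**Figure D4:**
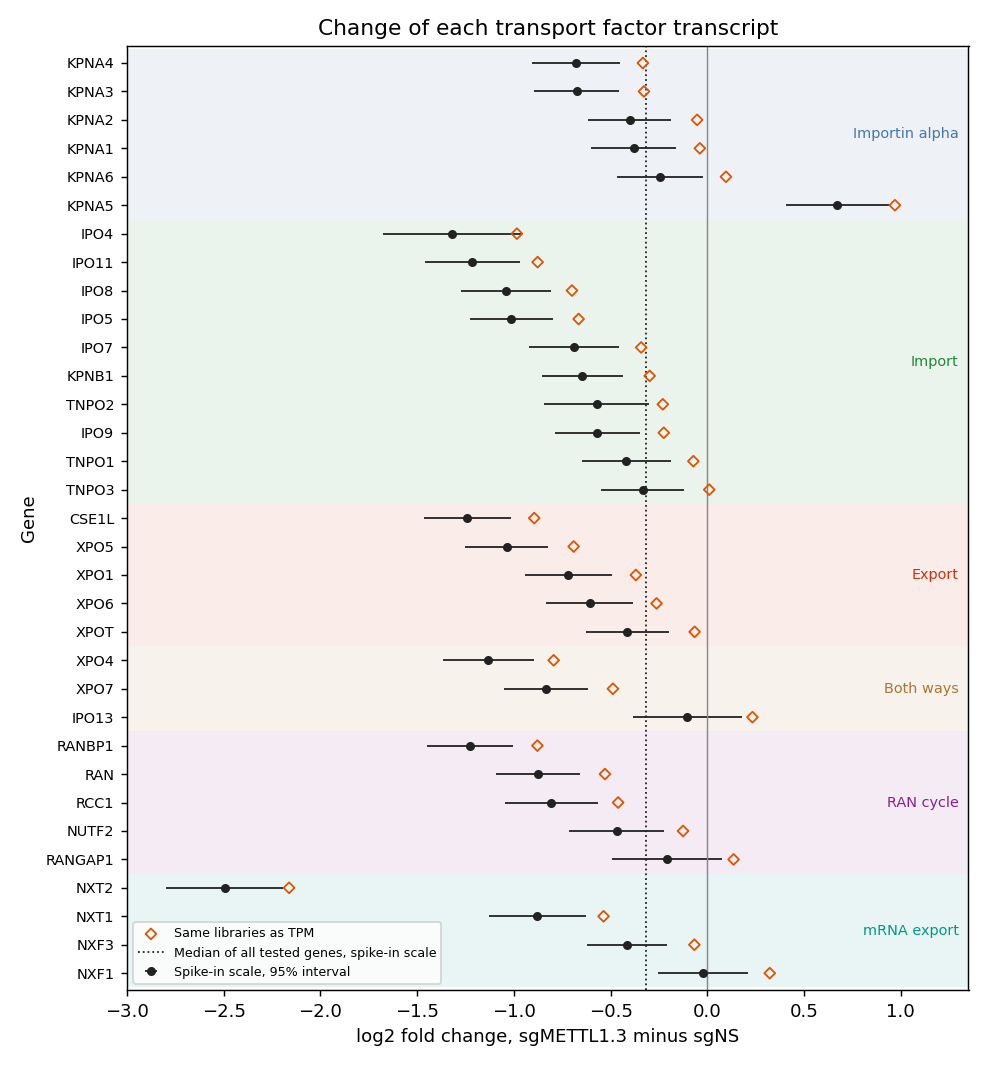
log2 fold change of 33 transcripts with 95% intervals on the spike-in scale (black) and the value as TPM (open orange), with a dotted line at the median of all tested genes, -0.32. NXT2 lies farthest left at -2.49 and KPNA5 alone lies right of 0 with its whole interval on the spike-in scale.

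Importin alpha adapters, which link cargo with classical localization signals to KPNB1, were less uniform. Of 6 tested, 4 fell, 1 rose and 1 did not pass, with a median of -0.39, near the -0.32 of all genes. Over all tested genes 49.3% fell and 6.4% rose. As TPM 2 of the 6 fell and 1 rose, when 26.6% of all tested genes fell and 24.4% rose. KPNA5 was the 1 transcript that rose on the spike-in scale, with values of 5.35, 5.54 and 4.93 in sgNS and 8.48, 8.64 and 9.90 in sgMETTL1.3 (0.67, SE 0.122, limma adjusted p = 0.000426). Every sgMETTL1.3 library was above every control, and the log2 fold change was 0.97 as TPM. KPNA5 was 0.571 ± 0.0470% of the importin alpha sum in controls and 1.33 ± 0.0375% with the METTL1 guide (SD, n = 3), so it stayed a minor form.

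The closely related pair KPNA3 and KPNA4 fell by 0.67 and 0.68, and by 0.33 each as TPM. KPNA2, the main form, went from 546 ± 33.6 to 414 ± 31.2 (SD, n = 3; -0.40), and KPNA1 had a log2 fold change of -0.38. Both fell on the spike-in scale and did not pass as TPM (-0.05 and -0.04). KPNA6, a relative of KPNA1 and KPNA5, did not pass on either scale (-0.25 and 0.10), and AL049795.2 overlaps its exons on the same strand. As TPM without sgMETTL1.3 replicate 1, KPNA6 passed as higher (0.16, limma adjusted p = 0.00162). On the spike-in scale it passed as lower without sgMETTL1.3 replicate 1 (-0.25) and without sgMETTL1.3 replicate 3 (-0.30). KPNA1 did not pass without sgNS replicate 2 (-0.34, limma adjusted p = 0.0531), nor TNPO3 without sgNS replicate 2 or 3 (-0.31 and -0.32).

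CSE1L fell further than the adapters it recycles. CSE1L per unit of summed importin alpha was 0.259, 0.261 and 0.256 in sgNS and 0.142, 0.153 and 0.153 in sgMETTL1.3. KPNB1 per importin alpha changed less, from 0.431 to 0.436 in sgNS to 0.369 to 0.392 in sgMETTL1.3. The ratio of CSE1L to KPNB1 was 0.593 to 0.606 in sgNS and 0.362 to 0.414 in sgMETTL1.3, a log2 difference of -0.60 (exact two-sided permutation p = 0.1).

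In the RAN cycle, 4 of 5 transcripts fell on the spike-in scale and 3 of 5 as TPM. The shares of all tested genes that fell were 49.3% and 26.6%. RAN had values of 428, 465 and 465 in sgNS and 233, 233 and 273 in sgMETTL1.3 (-0.88, and -0.53 as TPM). GENCODE names 9 RAN pseudogenes, among which reads could be split. RANBP1, which assists GTP hydrolysis on RAN, had values of 304, 319 and 322 in sgNS and 143, 119 and 142 in sgMETTL1.3 (-1.23, limma adjusted p = 1.18e-06, and -0.88 as TPM). It fell further than RAN, and the ratio of RANBP1 to RAN was 0.685 to 0.710 in sgNS and 0.510 to 0.611 in sgMETTL1.3. An exon of RANBP1 overlaps RF00599 on the same strand and TRMT2A on the opposite strand.

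RCC1, the nuclear exchange factor, fell by 0.81, from 108 ± 7.66 to 61.6 ± 7.001 (SD, n = 3), and by 0.46 as TPM; exons of SNHG3 overlap its own on the same strand. RANGAP1, the cytoplasmic GTPase activator, had values of 74.3, 75.4 and 76.9 in sgNS and 81.3, 55.2 and 61.8 in sgMETTL1.3 and did not pass (-0.21, 95% interval -0.50 to 0.08, and 0.14 as TPM). Without sgMETTL1.3 replicate 1 it fell (-0.36, limma adjusted p = 0.00167). The ratio of RCC1 to RANGAP1 was 1.34, 1.51 and 1.45 in sgNS and 0.844, 0.988 and 0.999 in sgMETTL1.3. RCC1 was thus the more abundant transcript in each control library. In sgMETTL1.3 replicates 2 and 3 the levels of RCC1 and RANGAP1 were about equal. RCC1 was clearly the lower only in replicate 1, the library that stood apart. NUTF2, which carries RAN-GDP into the nucleus, fell by 0.47 and did not pass as TPM (-0.13). An exon of CENPT overlaps NUTF2 on the opposite strand, and GENCODE names 7 NUTF2 pseudogenes.

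The GC trend of sgMETTL1.3 replicate 1 ran through these transcripts too. Across the 33, its deviation from the other 2 libraries had a Spearman correlation of 0.939 with transcript GC content, a description over genes that share 1 library. IPO4 (59.8% GC) was 0.48 higher there on the log2 scale, RANGAP1 (57.6%) 0.47 and IPO13 (58.2%) 0.42, while NXT2 (37.8%) was lower, at -0.39. Without this library 31 fell and 1 rose, when 61.4% of all tested genes fell and 6.43% rose, and the log2 fold change was -2.36 for NXT2, -1.19 for CSE1L and 0.71 for KPNA5. After correction of every library for GC content 31 fell and 1 rose as well (59% of all genes fell and 8.51% rose), and NXT2 stood at -2.32. In both of these fits the median prior degrees of freedom of limma were infinite, against 9.14 in the main fit. For most genes their p-values thus rest on a spread shared across genes. This holds for the calls of RANGAP1, IPO13 and KPNA6 without sgMETTL1.3 replicate 1.

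**Figure D5:**
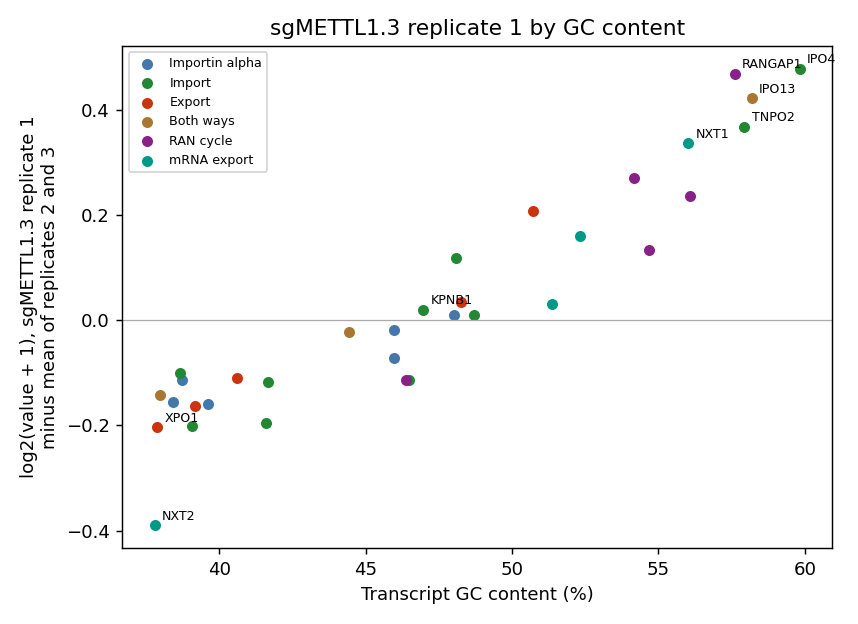
Deviation of sgMETTL1.3 replicate 1 from the mean of replicates 2 and 3, on log2(value + 1), against transcript GC content in percent, with 1 point per transcript colored by role. Points climb from NXT2 at -0.39 to IPO4 at 0.48.

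The 8 genes with CACGTG in a window all fell, on both scales, with a median log2 fold change of -0.76 and a range of -2.49 to -0.57, when 49.3% of all tested genes fell on the spike-in scale and 26.6% as TPM. With median-ratio rescaling 7 of the 8 passed (TNPO2 did not), and with quantile normalization 5 of the 8 (IPO7, KPNA3 and TNPO2 did not). Of the 20 tested genes that have a window without it, 16 fell, with a median of -0.44, and 9 fell and 2 rose as TPM. CSE1L (-1.24), IPO11 (-1.21) and XPO4 (-1.13) are among those without it, and no test was made of this split. Of all 33 tested members 28 fell on the spike-in scale and 21 as TPM. The share that fell among all tested genes with CACGTG was not computed, and the motif was chosen with earlier results of these data known.

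Other genes of the pathway were mostly lower on the spike-in scale, and fewer of them passed as TPM. Of 47 tested genes of mRNA export complexes, cap binding, the cytoplasmic face of the pore and RAN-binding factors, 40 fell and none rose by limma, with a median of -0.45, when 49.3% of all tested genes fell and 6.4% rose. As TPM 16 fell and 3 rose, with a median of -0.10, when 26.6% of all tested genes fell and 24.4% rose. AKIRIN2, an adaptor for nuclear import of proteasomes, alone had a value above 0 on the spike-in scale (0.05), where it did not pass with or without adjustment, and it rose as TPM (0.40). Among 7 genes of remodelling at the pore all fell, led by GLE1, the activator of the DDX19 helicase, from 69.6 ± 2.69 to 27.3 ± 1.85 (SD, n = 3; -1.32, and -0.98 as TPM) and NUPL2, its pore partner (-0.89). Only 3 of these 7 fell as TPM. Of 14 TREX and adaptor genes, 10 fell, among them THOC7 (-0.83) and THOC3 (-0.67), but only these 2 fell as TPM, and POLDIP3 rose there (0.28). All 5 cap-binding and snRNA export genes fell, with NCBP1 and NCBP2, the 2 subunits of the nuclear cap-binding complex, at -0.73 and -0.71. NCBP1 and NCBP2 were the only 2 of the 5 to fall as TPM. Of 6 TREX-2 genes 5 fell, and 4 as TPM, with CETN3 at -0.91 and PCID2 at -0.69, while SHFM1 did not pass (-0.08) and rose as TPM (0.27). Of 15 RAN-binding and adaptor genes 13 fell, and 5 as TPM, with NUP50, a pore protein that binds importin alpha, at -0.91.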

How the data were processed

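Per the submitters' processing notes, cutadapt, STAR and RSEM were used with builds GRCh38 and hg38. Tool versions, annotation and strand setting are not named in these sources. The values deposited by the authors are a signal, TPM times 1 factor per library, read from the values, in which spike-in rows sum to 38250 in rounded form. TPM keeps a step of 0.01 and no depth, so no counting interval is given. TPM was recovered by dividing each library by its factor. Genes at 1 or more in at least 3 of 6 libraries were tested on log2(value + 1), which understates the change of low genes, with limma 3.58.1 in R 4.3.3 (trend, robust), without a block, with Benjamini-Hochberg adjustment over all genes at 0.05. Spike-ins were left out. Ratios were tested by exact permutation in scipy 1.17.1. Loci, overlaps and GC content came from GENCODE 29 with a GC value for 96.8% of tested genes. The GC correction took the lowess trend (span 0.3) of each library's deviation from the mean of all libraries. That trend was centered on its own median before it was subtracted, so the general level of each library was kept. On simulated data with 200 changed genes among 12449, the fit called 35% of those changed by 0.5 and 80% of those changed by 1. It also called 12 unchanged genes. The simulated noise was independent between genes, and far more genes passed in the real data, so these rates do not carry over to them. The members, roles, lists, ratios and motifs were chosen with earlier results of these data known. Every gene of the name rule is accounted for; library values are given for those past a log2 fold change of 1 in size, those that rose and 7 central genes, and of related genes the 2 smallest p per subgroup and direction are named. Some items that these rules cover are not reported here.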

Additional observations from a re-analysis of the deposited data

How the results depend on the processing

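The 28 lower genes became 21 as TPM, 22 as TPM without sgMETTL1.3 replicate 1 (35.4% of all genes), 20 with median-ratio rescaling (26.9%), 17 with quantile normalization (26%) and 22 with GC correction of TPM values (33.9%), an alternative chosen after seeing the data, and 26 to 31 with 1 library left out (39.7% to 61.4% of all genes). The 1 higher gene became 3 as TPM, 4 as TPM without sgMETTL1.3 replicate 1 (34.7% of all genes), 2 with median ratios (25.2%), 3 with quantiles (23.9%) and 2 with GC correction of TPM values (30.5%), and stayed 1 with each library left out. Log2 fold changes turned positive as follows. As TPM: IPO13 0.23, TNPO3 0.01, KPNA6 0.10, RANGAP1 0.14 and NXF1 0.32. As TPM without sgMETTL1.3 replicate 1: TNPO1 0.061, KPNA2 0.022, NXF1 0.34, KPNA1 0.0523, XPOT 0.0395, RANGAP1 0.047, TNPO3 0.0384, IPO13 0.16 and KPNA6 0.16. With median ratios: TNPO3 0.0246, NXF1 0.34, KPNA6 0.11, RANGAP1 0.15 and IPO13 0.25. With quantiles: XPOT 0.0217, NXF1 0.39, IPO13 0.26, RANGAP1 0.22, NXF3 0.0309, TNPO3 0.0857, KPNA1 0.0365, TNPO1 0.0267 and KPNA6 0.16. With GC correction of TPM values: TNPO3 0.0376, NXF1 0.29, KPNA1 0.03, KPNA2 0.0157, RANGAP1 0.0203, XPOT 0.0868, KPNA6 0.13, IPO13 0.11 and TNPO1 0.0687. With 1 library left out IPO13 ranged from -0.2434 to 0.0125 and NXF1 from -0.0743 to 0.0633. Beyond the scalings themselves, the cause was not tested. A replicate block gave 28 lower (47.1% of all genes) and 1 higher (6.54%) and changed no call among the 33. The median prior degrees of freedom of limma were infinite in the block fit as well, and 269 without sgNS replicate 3. Their p-values thus also rest largely on a spread shared across genes. The deviations of same-numbered libraries from their group means had correlations of -0.0137, 0.0046 and -0.0385. With 3 libraries per group, 1 of them carrying the GC trend, these values cannot show whether the numbers mark shared cultures or days. The labels do not say so either. Pseudocounts of 0.1 and 5, no filter, a mean of at least 5 and a fit without trend and robust steps changed no call among the 33. The differences of the 10 ratios kept their sign with 1 added to both values, with GC correction and with each library left out. The GC-corrected ratios were formed on log2(value + 1), so their moves mix the added 1 with GC correction. Of them, 4 moved by more than 1 SD from the ratios without an added 1. These were NXT2 to NXF1 at -2.26, CSE1L to KPNB1 at -0.48, XPOT to XPO5 at 0.76 and KPNA2 to KPNA4 at 0.18. How much of each move came from GC correction alone was not separated. The read depth is unknown, so no limit from depth can be given.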
